A study of Mus musculus with 6 samples.

Results

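Lysosomal cathepsins and their secreted inhibitor cystatin C were followed in cultures of a mouse mammary tumour after the microRNA miR-16 was raised. The set was 10 genes, Ctsa, Ctsb, Ctsc, Ctsd, Ctsh, Ctsk, Ctsl, Ctss, Ctsz and Cst3, taken with all their non-control probes on a mouse expression array. The gene name in the array files found 12 probes of 9 of these genes. Ctsa is listed there under an older name, Ppgb, and its 3 probes were found through their RefSeq accession. The set therefore held 15 of 41174 probes, and all 15 probes and all 10 genes passed the filter on dim signal, out of 16702 genes tested.

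The cells were epithelial-enriched primary cultures of C4HD, a hormone-dependent ductal tumour of BALB/c females that arose under medroxyprogesterone acetate (MPA) and is kept by serial transplantation. The donor mice of both groups carried a depot of 40 mg MPA, and the cells were plated in medium with 5% steroid-stripped fetal calf serum. One group was transfected with 30 nM pre-miR-Control, a precursor that makes no known mammalian miRNA, and the other with 30 nM pre-miR-16, both for 48 h with the lipid reagent siPORT NeoFX. There were 3 cultures and 3 single-colour arrays per group, which the labels call replicates, and their number limits the precision. The labels do not say how many tumours or mice the cultures came from, so p-values measure the spread between these samples. Fibroblasts had been removed by repeated sedimentation, and no sort for epithelial cells is described.

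Cathepsins are proteases of the endosome and lysosome that are made as inactive precursors, sorted by mannose 6-phosphate tags and activated by the acid of the organelle. Ctsb, Ctsh, Ctsl, Ctsz, Ctsc, Ctsk and Ctss are cysteine proteases, Ctsd is an aspartic protease and Ctsa a serine carboxypeptidase. Ctsb, Ctsd, Ctsl, Ctsh, Ctsz and Ctsa are expressed in most tissues, whereas Ctss and Ctsc are highest in myeloid and other immune cells, and Ctsk in osteoclasts and in activated fibroblasts. Cystatin C, the product of Cst3, is secreted by most cells and blocks cysteine cathepsins outside the cell.

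The agent, 1 probe and 3 promoters are shown as sequence for reference, and whether any change depends on them was not tested. The mature miR-16-5p strand is shown with its seed (bases 2 to 8) in capitals, from RefSeq (GRCm38.p6). The same seed is held by 10 mature mouse miRNA names in that table, among them miR-15a-5p, miR-15b-5p and miR-195a-5p.
mmu-miR-16-5p: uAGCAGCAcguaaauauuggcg

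The Ctsk probe is shown because it gave, with that of Ctss, the largest change, and no letter of it is in capitals. Its 60 bases align to chr3:95380674-95380918 in the files' build (mm7), a span of 245 bases, so the probe lies across a gap in the genomic alignment. The longest run that it shares with a probe of another gene of the set is 7 bases, with Ctss, and over all 15 probes that longest run was 7 to 9 bases.
Ctsk probe: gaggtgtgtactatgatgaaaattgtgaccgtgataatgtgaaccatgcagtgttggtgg

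The 150 bases upstream of the start of Ctss, Ctsk and Ctsd are shown because Ctss and Ctsk lie side by side in the genome and changed most, and Ctsd is a broadly expressed counterpart. They are given on the coding strand from RefSeq (GRCm38.p6), at chr3:95526636-95526785 (plus strand), chr3:95499060-95499209 (plus strand) and chr7:142387828-142387977 (minus strand). Capitals mark matches on either strand to CACGTG, the E-box at the core of the element of lysosomal genes, to the core of the interferon-stimulated response element (GAAA, 2 bases of any kind and GAAA), or to GAGGAAGT, a PU.1-type ETS site.
Ctss upstream: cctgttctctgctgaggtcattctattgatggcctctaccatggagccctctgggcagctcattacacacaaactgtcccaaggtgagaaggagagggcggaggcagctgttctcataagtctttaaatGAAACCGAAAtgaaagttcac
Ctsk upstream: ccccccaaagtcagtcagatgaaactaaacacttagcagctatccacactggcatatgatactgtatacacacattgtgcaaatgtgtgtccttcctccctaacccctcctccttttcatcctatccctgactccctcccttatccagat
Ctsd upstream: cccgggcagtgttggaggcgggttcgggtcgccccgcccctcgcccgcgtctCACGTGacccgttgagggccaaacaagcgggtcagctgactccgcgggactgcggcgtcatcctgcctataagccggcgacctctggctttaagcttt

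The Ctss window has 1 match to the interferon-type core, from -21 to -12 relative to the start, the Ctsd window 1 CACGTG from -98 to -93, and the Ctsk window no match to any of these letters. These motifs do not overlap one another in these windows. Over the whole 300 bases that the table holds (upstream of the start and the first 50 after it), 8 of the 10 genes had a promoter. CACGTG was present in 3 of these 8, namely Ctsa, Ctsd and Ctsl, against 8.09% of all 27025 genes. Other lysosomal genes had it at similar shares: 24.1% of 29 hydrolases and cofactors and 38.1% of 21 membrane proteins and proton pump subunits. GAGGAAGT was present in Ctss (from -2 to 5, across the start) and Ctsc (from -151 to -144), against 3.69% of all genes, and the interferon-type core in Ctss, against 3.99%. A match is a run of letters and not a shown binding site.

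The 75th percentile of the processed signal was 625 to 909 intensity units on the 6 arrays, 57.2% to 64.0% of spots were well above background and 0 were saturated. Levels below are log2 processed signals minus the array's own 75th percentile, so a level of 0 is the 75th percentile. Levels are not compared between probes, except that the marker sums add them, so a sum leans on its brightest probes. Changes are pre-miR-16 minus pre-miR-Control on the log2 scale with the standard error (SE) from limma, and a gene was called at a Benjamini-Hochberg adjusted p under 0.05 over all genes. The pre-miR-16 arrays of replicates 1 and 3 correlated at r = 0.995 with each other across genes, and replicate 2 at 0.986 and 0.983 with them, whereas the control arrays correlated at 0.991 to 0.995. The level of the 8 labelling spike-in probes above the 75th percentile was 3.80 to 3.95 on control arrays and 3.28 to 3.64 on pre-miR-16 arrays. Scaling on those probes therefore moved every change up by 0.38 and the median of all genes from -0.20 to 0.18, and values on that scale are given beside the genes of the set whose call they turn.

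Of the 10 genes, 5 rose after pre-miR-16 (Ctsk, Ctss, Ctsc, Ctsl and Cst3), 2 fell (Ctsh and Ctsb) and 3 were not called (Ctsd, Ctsa and Ctsz). The share called was read against a background in which 49.1% of all 16702 genes were called, 15.9% as a rise and 33.2% as a fall. The median change of the set was 0.48, beside -0.20 over all genes. With spike-in scaling 7 of the 10 rose and 0 fell (limma; 0 also at an unadjusted p under 0.05), while 28.2% of all genes were called, 22% as a rise and 6.23% as a fall. The myeloid cathepsins Ctss and Ctsc and the mesenchymal Ctsk all rose, by 1.16 to 4.21, whereas the 6 broadly expressed cathepsins ranged from -0.57 to 0.62.

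Ctsk, the collagen-degrading cathepsin of osteoclasts and fibroblasts, was dim in control cultures, at -3.56, -4.20 and -3.07, and at 0.45, 0.94 and 0.42 after pre-miR-16. The lowest pre-miR-16 array lay far above the highest control array, and the probe was well above background on all 6. The means were -3.61 ± 0.57 and 0.60 ± 0.29 (SD, n = 3 each), a rise of 4.21 ± 0.30 (SE), or 18.5-fold (limma, adjusted p = 1.63e-04), which ranked 199 among the rises of all genes. Within the slides that held both groups the rise was 4.01 on slide 1 and 4.57 on slide 2. With the normexp background model, which raises dim signals, it was 3.12 (adjusted p = 1.16e-05), and 3.18 with the log2 values of the deposited series matrix.

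Ctss, the cathepsin that cleaves the invariant chain of class II molecules, read -0.26, -0.35 and -1.52 in control cultures and 3.38, 3.69 and 3.35 after pre-miR-16. Control replicate 3 was lower than the other controls, and the groups did not overlap. The rise was 4.18 ± 0.35 (SE), or 18.1-fold (limma, adjusted p = 2.99e-04), and 3.63 and 4.62 within slides 1 and 2. The scanner's processed signal of the Ctss probe was 242 to 524 intensity units on control arrays and 7717 to 9483 on pre-miR-16 arrays, so it was well above background in both groups.

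Ctsc, the dipeptidyl peptidase that activates the granule proteases of leukocytes, moved less than these genes. It read -0.14, -0.01 and 0.07 in control cultures and 1.05, 1.14 and 1.20 after pre-miR-16, with no overlap. This is a rise of 1.16 ± 0.10 (SE), or 2.23-fold (limma, adjusted p = 3.46e-04), with 1.19 and 1.11 within slides 1 and 2. Its 3 values per group were tighter than those of Ctss or Ctsk, at an SD of 0.11 in controls and 0.08 after pre-miR-16.

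**Figure D1:**
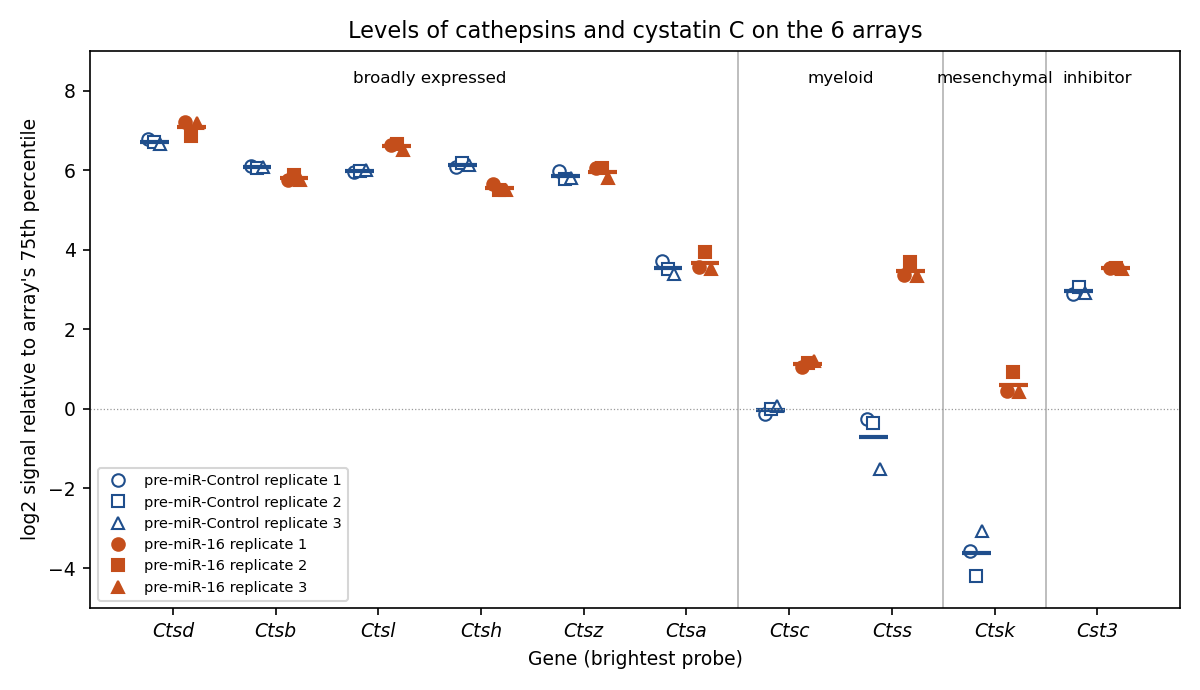
Log2 signal relative to the array's 75th percentile (y axis) for the brightest probe of each gene (x axis); open blue symbols are the 3 pre-miR-Control arrays, filled orange symbols the 3 pre-miR-16 arrays, marker shape gives the replicate and bars are group means. Ctss and Ctsk separate widely, Ctsk from -3.61 to 0.60 in the means, while the broadly expressed cathepsins sit high in both groups; heights of different genes come from different probes and are not compared.

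Among the broadly expressed cathepsins, Ctsl rose, Ctsh and Ctsb fell, and Ctsd, Ctsa and Ctsz were not called; their median change was 0.12. Ctsl, an endopeptidase with strong activity on matrix and lysosomal proteins, read 5.95, 5.99 and 6.0 in control cultures and 6.63, 6.66 and 6.51 after pre-miR-16. The groups were tight and apart. The rise was 0.62 ± 0.09 (SE), or 1.54-fold (limma, adjusted p = 0.00222), and 0.69 and 0.66 within slides 1 and 2. With spike-in scaling it was 1.00 (2.01-fold, adjusted p = 0.00157).

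Ctsh, an aminopeptidase that also processes surfactant protein in the lung, went the other way. Its levels were 6.08, 6.17 and 6.13 in control cultures and 5.65, 5.50 and 5.51 after pre-miR-16, again with no overlap. It fell by 0.57 ± 0.09 (SE) on the log2 scale (limma, adjusted p = 0.00339), with -0.43 and -0.65 within slides 1 and 2. With spike-in scaling the change was -0.19, the groups overlapped and the call was lost (adjusted p = 0.44).

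Ctsb, a carboxydipeptidase and endopeptidase often raised in tumours, read 6.09, 6.04 and 6.08 in control cultures and 5.76, 5.87 and 5.76 after pre-miR-16. The groups did not overlap, and the change was small, a fall of 0.28 ± 0.08 (SE; limma, adjusted p = 0.0348), with -0.33 and -0.19 within slides 1 and 2. With spike-in scaling the value was 0.11 (adjusted p = 0.68), and in a fit that blocks on slide it was -0.25 (adjusted p = 0.14). The call was also lost when any array other than pre-miR-16 replicate 2 was left out, at changes of -0.29 to -0.26 against -0.31 without that replicate.

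Ctsd, the main aspartic protease of the lysosome, read 6.79, 6.70 and 6.66 in control cultures and 7.22, 6.85 and 7.19 after pre-miR-16. All 3 pre-miR-16 arrays were above all controls, and replicate 2 was the nearest to them. The change of 0.37 ± 0.13 (SE, 1.29-fold) lay just past the threshold (limma, adjusted p = 0.0505), with 0.43 and 0.17 within slides 1 and 2. It was called with spike-in scaling (0.75, adjusted p = 0.0178), with normexp (0.41, adjusted p = 0.0244) and when pre-miR-16 replicate 2 was left out (0.49, adjusted p = 0.00604).

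Ctsa, the carboxypeptidase that also protects beta-galactosidase and neuraminidase in the lysosome, read 3.71, 3.50 and 3.39 in control cultures and 3.56, 3.94 and 3.52 after pre-miR-16. Ctsz, a carboxypeptidase with an integrin-binding prodomain, read 5.98, 5.78 and 5.81, and 6.06, 6.04 and 5.79. Both genes overlapped between the groups, with changes of 0.14 ± 0.15 and 0.11 ± 0.12 (SE; limma, adjusted p = 0.48 and 0.46). For Ctsa the within-slide values opposed each other, at -0.15 on slide 1 and 0.49 on slide 2. With spike-in scaling Ctsz was called at 0.49 (adjusted p = 0.0430), and Ctsa was at 0.52 (adjusted p = 0.060). In all, 8 of the 10 genes had groups that did not overlap, as did 61.4% of all genes: 6 of the 10 were higher after pre-miR-16 and 2 lower, against 18.9% and 42.5% of all genes.

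Of the 15 probes, 10 were called when all 23827 kept probes were fitted, where 46.6% of all probes were called. The probes of Ctsb disagreed. The bright one, at chr14:58006948-58007007 (mm7), gave the fall above, whereas the dimmer one, at chr14:58009173-58009232, read -1.47, -1.89 and -1.35 in control cultures and -0.58, -0.34 and -0.60 after pre-miR-16. At the dimmer probe this was a rise of 1.06 ± 0.17 (SE), or 2.09-fold (limma, adjusted p = 0.00365), with 0.89 and 1.28 within slides 1 and 2 and no overlap. Both probes were well above background on every array, and the bright one read 40315 to 49170 intensity units and the dim one 175 to 601. What transcripts each probe reads was not tested, and no saturation flag was set. The bright Ctsd probe was not called over all probes (adjusted p = 0.0540), and its dimmer probe rose by 0.48 ± 0.14 (SE; limma, adjusted p = 0.0301). That call was lost once slide entered the fit (0.38, adjusted p = 0.13) and when any array but pre-miR-16 replicate 2 was left out (0.40 to 0.49). The Ctsz probes gave 0.11 and 0.06. For Ctsa a dimmer probe was called at 0.39 ± 0.11 (SE; adjusted p = 0.0296), a call lost once slide entered the fit (0.44, adjusted p = 0.063) and without control replicate 2 or 3 or pre-miR-16 replicate 1 (0.34 to 0.38). The dimmest Ctsa probe, well above background on 1 control array, gave 0.68 ± 0.44 and was not called (adjusted p = 0.24). It moved to 1.20 and was called without control replicate 1 (adjusted p = 0.00596), and was at 0.36 without control replicate 3 and 0.05 with normexp.

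**Figure D2:**
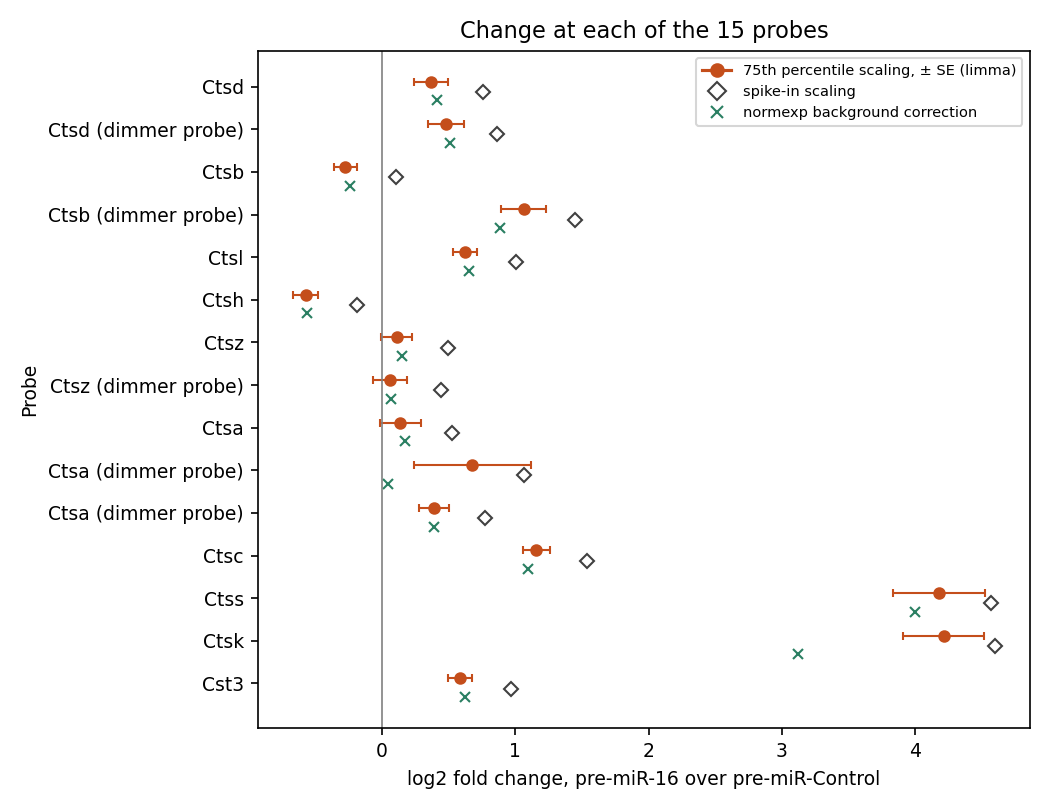
Log2 fold change (x axis) at each of the 15 probes (y axis, grouped by gene): orange points with bars are the limma estimate ± SE with 75th percentile scaling, diamonds the value with spike-in scaling and crosses the value with normexp. The Ctsb probes lie on opposite sides of 0 (-0.28 and 1.06), the diamonds lie 0.38 to the right of the orange points, and Ctsk drops from 4.21 to 3.12 with normexp.

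Taking Ctsb off every gene within each array removes any scaling between arrays and asks directly whether the other genes changed by a different amount from the bright Ctsb probe. On this scale 36.8% of all 16701 other genes were called, 23.1% as a rise and 13.6% as a fall. Of the 9 other genes of the set, 7 rose relative to Ctsb (Ctsk, Ctss, Ctsc, Ctsl, Cst3, Ctsd and Ctsz), while Ctsa and Ctsh were not called. Ctsk minus Ctsb was -9.65, -10.25 and -9.15 on control arrays and -5.31, -4.93 and -5.34 on pre-miR-16 arrays, and Ctss minus Ctsb was -6.35, -6.40 and -7.60, and -2.39, -2.18 and -2.41. The differences in change were 4.49 ± 0.28 for Ctsk and 4.46 ± 0.34 for Ctss (SE; limma, adjusted p = 4.87e-05 and 1.25e-04). For Ctsc it was 1.43 ± 0.11 (adjusted p = 1.41e-04).

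The broadly expressed genes were also unequal among themselves. Relative to Ctsb, Ctsl changed by 0.90 ± 0.09 (SE; limma, adjusted p = 6.11e-04), Ctsd by 0.65 ± 0.15 (adjusted p = 0.0177), Ctsz by 0.38 ± 0.11 (adjusted p = 0.0383), Ctsa by 0.41 ± 0.14 (adjusted p = 0.0531) and Ctsh by -0.30 ± 0.11 (adjusted p = 0.0794). Cst3 changed by 0.86 ± 0.11 (adjusted p = 0.00130). Against Ctsd in place of Ctsb, Ctsh was lower by -0.94 (adjusted p = 0.00199), and Ctsz had the opposite sign, at -0.26 (adjusted p = 0.22). With the mean of a gene's probes in place of the brightest, which mixes the opposed Ctsb probes, Ctsd relative to Ctsb was 0.03 (adjusted p = 0.89) and Ctsz -0.31 (adjusted p = 0.12). The Ctsd call relative to Ctsb was lost at 0.56 to 0.66 without control replicate 2 or 3 or without pre-miR-16 replicate 1 or 3, and the Ctsz call at 0.32 to 0.44 without any control replicate or without pre-miR-16 replicate 1. Both calls were also lost with slide in the fit (adjusted p = 0.0703 and 0.0683). Ctsl was at 0.25 (adjusted p = 0.22) against Ctsd and 0.23 (adjusted p = 0.23) with the mean of probes, and Cst3 at 0.21 (adjusted p = 0.26) and 0.19 (adjusted p = 0.35), so both lost their call. Ctsc kept its call in both settings, at 0.79 (adjusted p = 0.00669) and 0.76 (adjusted p = 0.00430).

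**Figure D3:**
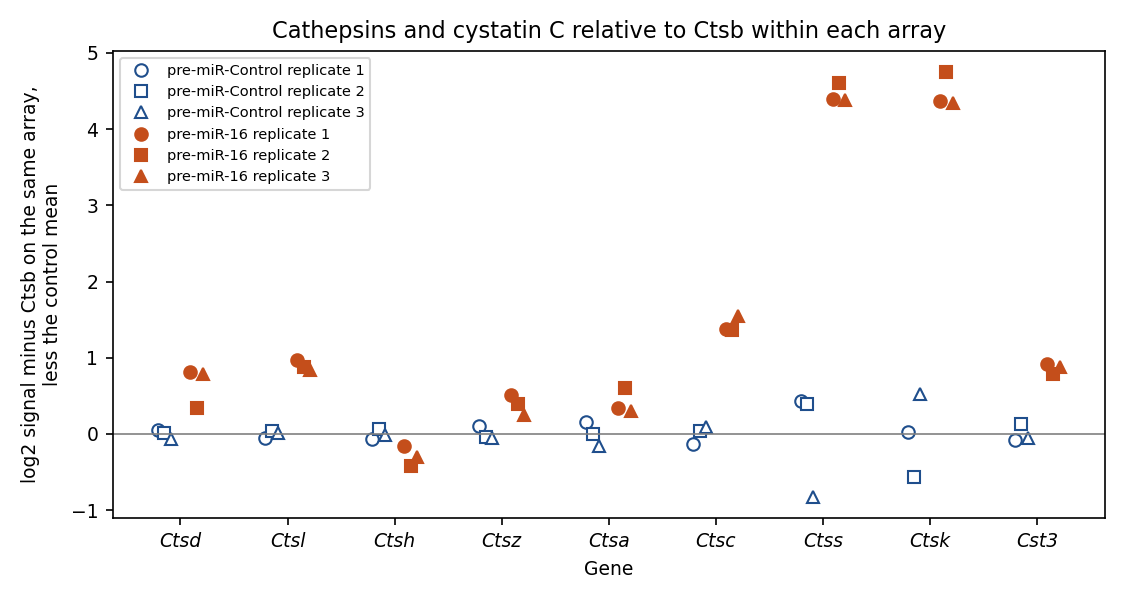
Log2 signal minus that of Ctsb on the same array, less the control mean (y axis), for each other gene (x axis); open blue symbols are pre-miR-Control arrays, filled orange symbols pre-miR-16 arrays, and marker shape gives the replicate. Ctss and Ctsk stand more than 4 above the control mean, Ctsc near 1.43, and Ctsh is the gene whose pre-miR-16 arrays all lie below 0.

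Cst3 also rose. It read 2.89, 3.05 and 2.91 in control cultures and 3.55, 3.53 and 3.51 after pre-miR-16. The rise was 0.58 ± 0.09 (SE), or 1.50-fold (limma, adjusted p = 0.00293), with 0.66 and 0.55 within slides 1 and 2. Its size was near that of Ctsl, and far under that of Ctss and Ctsk, 2 of the proteases that cystatin C inhibits.

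Of the other cystatins and cathepsin inhibitors, 6 of 17 listed genes were tested, of which 4 rose and 1 fell, with a median of 0.98. Ctla2a and Ctla2b, whose products resemble a cathepsin propeptide and inhibit cathepsin L-like proteases, rose by 4.38 ± 0.18 and 4.23 ± 0.17 (SE; limma, adjusted p = 1.67e-05 and 1.51e-05). These paralogs are nearly identical, so their probes may read each other's transcripts and the pair is best taken as 1 signal. Both nevertheless enter the count of 4 that rose and the median above. Ctla2a read -1.32, -1.50 and -0.84 in control cultures and 3.20, 3.13 and 3.14 after pre-miR-16. Cstb, the intracellular cystatin B, rose by 0.72 ± 0.12 (adjusted p = 0.00408), whereas Cst6, a secreted cystatin of epithelia, fell by 1.42 ± 0.10 (adjusted p = 1.39e-04). Stfa3 and Cst12 were named after their values were seen. Stfa3 (stefin A3), entered in the list as Stfa1, rose by 1.25 ± 0.34 (adjusted p = 0.0238). That call ended once slide entered the fit (adjusted p = 0.0512), and the change was 0.39 with normexp. Whether its probe tells Stfa3 from other stefin A genes was not tested. Cst12 was at -0.05 ± 0.59 (adjusted p = 0.93). Cst7, the cystatin F of leukocytes, was not tested: it was well above background on 0 control and 2 pre-miR-16 arrays.

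Of 13 other cathepsin genes, 5 were tested and they moved both ways, with 2 that rose and 2 that fell and a median of -0.67. Ctsf, a widely expressed cysteine protease, rose by 2.10 ± 0.16 (SE; limma, adjusted p = 1.94e-04), from -3.92, -3.68 and -3.76 to -1.80, -1.37 and -1.87, and by 1.21 with normexp. Ctsw, a cathepsin of cytotoxic lymphocytes, rose by 2.42 ± 0.37 (adjusted p = 0.00294), but it was well above background on 1 control array only and the normexp value was 0.78. Ctse, an aspartic protease of epithelia and immune cells, fell by 1.74 ± 0.30 (adjusted p = 0.00467), from 1.97, 1.95 and 1.74 to -0.24, 0.85 and -0.16. Ctso fell by 0.76 ± 0.13 (adjusted p = 0.00494), and with spike-in scaling it was at -0.37 and not called (adjusted p = 0.16). Ctsg, a neutrophil serine protease named after its value was seen, was at -0.67 ± 0.53 (adjusted p = 0.33). The other 8 are genes of the placental cathepsin cluster and were too dim to test.

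The rest of the lysosomal machinery did not share the size of the Ctsk and Ctss changes. Among 35 tested lysosomal hydrolases and cofactors 9 rose, 8 fell and 18 were not called, with a median of 0.10 and a range of -1.81 to 2.24. On the spike-in scale the counts were 15 rises and 1 fall, around a median of 0.49. Over all genes 15.9% rose and 33.2% fell, and with spike-in scaling 22% rose and 6.23% fell. These shares are also the background for the membrane, pump and sorting genes below. Psap, the precursor of the saposins, rose by 1.80 ± 0.11 (SE; limma, adjusted p = 8.27e-05), Lgmn, the asparaginyl endopeptidase that trims cathepsin precursors, by 1.48 ± 0.10 (adjusted p = 1.01e-04), and Smpd1, acid sphingomyelinase, by 2.24 ± 0.21 (adjusted p = 4.81e-04). Ids, iduronate sulfatase, fell by 0.90 ± 0.11 (adjusted p = 0.00137), and was at -0.52 with spike-in scaling (adjusted p = 0.083).

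Among 25 tested membrane proteins and subunits of the proton pump that acidifies the lysosome, 5 rose, 4 fell and 16 were not called, with a median of 0.13 (11 rose and 0 fell with spike-in scaling, 0 also at an unadjusted p under 0.05). The pump subunits Atp6v1b2, Atp6v0a1 and Atp6v0d1 rose by 0.86, 0.70 and 0.59 (adjusted p = 0.00179, 0.00173 and 0.00266). Cln3, a lysosomal membrane protein, fell by 0.85 ± 0.14 (SE; limma, adjusted p = 0.00389), and was at -0.47 with spike-in scaling (adjusted p = 0.13). Of 11 genes of mannose 6-phosphate sorting, 1 rose and 2 fell, with a median of -0.15: Gnptab, a subunit of the enzyme that makes the tag, rose by 0.81 ± 0.11 (adjusted p = 0.00180), and the adaptors Gga1 and Gga3 fell by 0.49 and 0.31 (adjusted p = 0.00535 and 0.0395). Neither adaptor was called with spike-in scaling (adjusted p = 0.67 and 0.82), and Gga3 lost its call once slide entered the fit (adjusted p = 0.092).

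Of 5 transcription factors known to act on lysosomal genes, 4 were tested. Tfeb and Tfe3 were at -0.09 ± 0.19 and 0.11 ± 0.12 (SE; limma, adjusted p = 0.71 and 0.48), and Zkscan3, a repressor of such genes, at -0.34 ± 0.15 (adjusted p = 0.097). Tfec, a family member of macrophages, rose (adjusted p = 0.00255), with signal well above background on 0 control and 3 pre-miR-16 arrays, so its change is a bound, at least 1.88-fold, on the processed signal; with normexp the log2 change was 0.36. This bound sets the pre-miR-16 mean against the lowest signal that was well above background on the control arrays. Mitf was too dim to test.

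**Figure D4:**
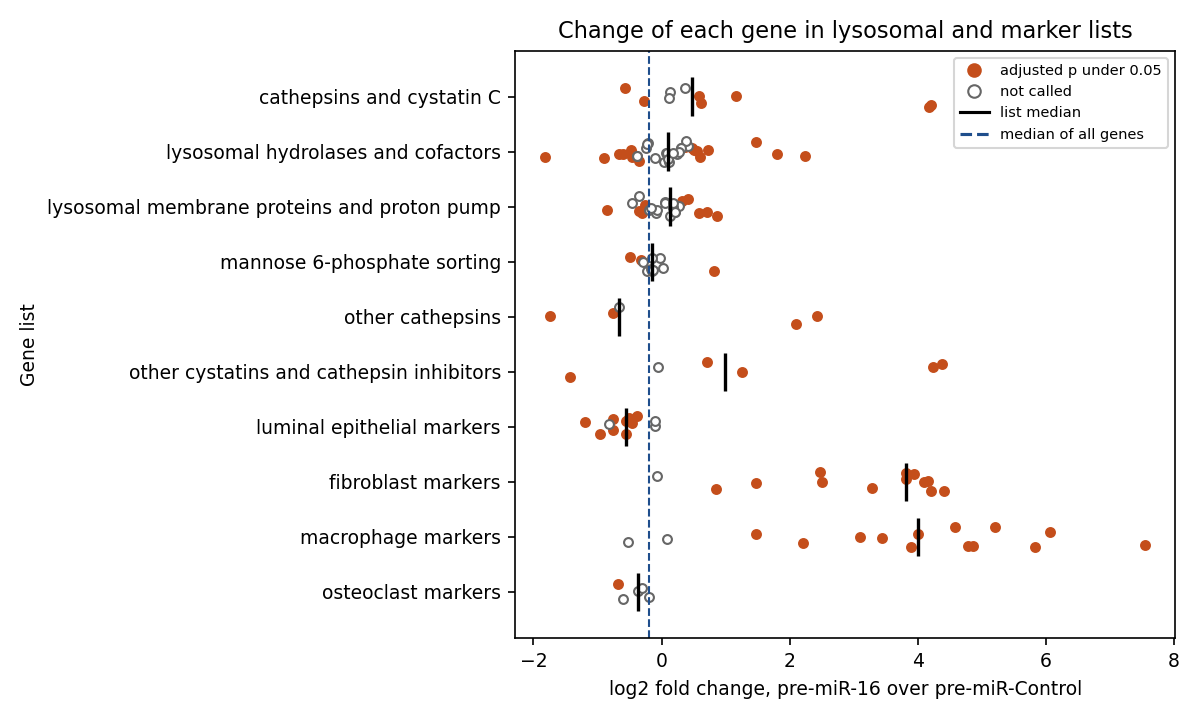
Log2 fold change (x axis) of each tested gene in the cathepsin set and in 9 lists (y axis); filled points have an adjusted p under 0.05, open points were not called, black bars are list medians and the dashed line is the median of all genes, -0.20. The lysosomal lists centre near 0 (medians 0.10, 0.13 and -0.15), macrophage and fibroblast markers near 4.0 and 3.81, and Ctsk and Ctss lie at 4.21 and 4.18.

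Markers of other cell types moved with Ctss, Ctsc and Ctsk, and their part in these changes was not tested. Of 15 macrophage markers 13 rose, with a median of 4.0 (2.24 with normexp), and their summed linear level, in units of each array's 75th percentile, was 18.6 to 24.4 on control arrays and 219 to 268 on pre-miR-16 arrays. Most of the pre-miR-16 sum came from Lyz2 alone, so the sum does not describe the list as a whole. Lyz2 read 3.16, 3.11 and 1.95 on control arrays and 7.60, 7.80 and 7.40 on pre-miR-16 arrays (log2). Ptprc and Mrc1 were well above background on 0 control arrays, Fcgr1 and Itgam on 1, and Adgre1, C1qa, C1qc and Tyrobp on 2. All of these passed the filter only through the pre-miR-16 group, and they count among the 13 that rose. Csf1r and Aif1 were not called (-0.52 and 0.08, adjusted p = 0.14 and 0.80). Of 13 fibroblast markers 12 rose, with a median of 3.81 and sums of 414 to 485 against 645 to 801. Most of the control sum came from Dcn, and without it, a choice made after its level was seen, the sums were 37.6 to 43.7 against 308 to 399. Col1a1, Col1a2 and Col5a1 rose by 3.94, 4.16 and 4.09 (limma, adjusted p = 1.17e-05 for each), and Dcn was at -0.07 ± 0.13 (SE; adjusted p = 0.67). Lum was well above background on 1 control array and Fap on 2. Both passed the filter only through the pre-miR-16 group, and they count among the 12 that rose. With normexp 11 of the 13 rose, and Pdgfra was at 0.27 and not called (limma, adjusted p = 0.053). In such bulk cultures a change in the share of a cell type and a change in RNA per cell cannot be told apart.

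Of the markers of osteoclasts, the other cells known for Ctsk, 0 rose (limma; 0 also at an unadjusted p under 0.05). Of 7 listed genes 5 were tested: Nfatc1 fell by 0.68 ± 0.20 (SE; limma, adjusted p = 0.0316; -0.29 and adjusted p = 0.32 with spike-in scaling), and Acp5, Ocstamp, Oscar and Tnfrsf11a were at -0.37, -0.59, -0.20 and -0.30 and not called. Dcstamp was not well above background on any array and Calcr was so on 1 control array, and the summed level was 6.37 to 7.48 on control arrays and 4.44 to 6.50 on pre-miR-16 arrays. On every array most of that sum came from Acp5, so it does not describe the osteoclast list as a whole. Of 12 luminal epithelial markers 9 fell and 3 were not called, with a median of -0.56 and sums of 1047 to 1179 against 637 to 671. Most of these sums came from the keratins of the list. Each of the 12 was well above background on every array. Krt8, Krt18, Epcam and Cdh1 fell by 1.19, 0.95, 0.76 and 0.76 (limma, adjusted p = 4.29e-04, 0.0010, 0.00260 and 0.00297). With spike-in scaling 2 of the 12 fell, Krt8 and Krt18, while Epcam and Cdh1 were both at -0.37 and not called (adjusted p = 0.14 and 0.15). Of 7 lymphocyte markers 2 were tested and 1 rose, and of 5 endothelial markers 0 could be tested. The lymphocyte marker that rose, Cd79b, was well above background on 1 control array only. Its change was 2.63, and 0.40 with normexp.

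Genes of class II antigen processing, in which Ctss acts, were split. H2-Ab1, a class II beta chain, read -3.83, -3.61 and -3.62 in control cultures and 0.22, 0.66 and -0.0025 after pre-miR-16, a rise of 3.98 ± 0.18 (SE; limma, adjusted p = 2.46e-05) and of 2.88 with normexp. H2-DMb1, a chain of the peptide loader, rose to at least 2.24-fold by the bound defined above (adjusted p = 0.00207), with a log2 change of 0.47 under normexp. Cd74, the invariant chain itself and thus the substrate of Ctss, was at -0.34 ± 0.29 (adjusted p = 0.36), with overlapping levels of 1.22, 1.00 and 0.75, and 0.17, 1.25 and 0.52. H2-DMa was at -0.01 ± 0.08 (adjusted p = 0.90). H2-Eb1, another class II beta chain, fell by 0.90 ± 0.20 (adjusted p = 0.0130), a call lost with spike-in scaling (-0.52, adjusted p = 0.086) and once slide entered the fit (-0.79, adjusted p = 0.073). H2-Aa and the class II activator Ciita were too dim to test.

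Ctsk and Ctss are adjacent genes on chromosome 3, and the genes around them did not share their change. In the RefSeq gene order (GRCm38.p6) the protein-coding neighbours are Cers2, Setdb1, 4930558C23Rik and Arnt on the Ctsk side and Hormad1, Golph3l, Ensa and Mcl1 on the Ctss side. The 7 neighbours that were tested lay between -0.36 and 0.30 and 0 were called (limma, adjusted p from 0.071 to 0.59; 2 had an unadjusted p under 0.05, Cers2 and Setdb1, both with values below 0), while Hormad1 was too dim to test. Arnt, next to Ctsk, was at -0.12 ± 0.17 (SE), and Golph3l, the nearest tested gene beyond Ctss, at -0.21 ± 0.15. With spike-in scaling Ensa alone of the 7 was called (0.69, adjusted p = 0.0165). The probes of Ctsk and Ctss lie apart at chr3:95380674-95380918 and chr3:95430189-95430248 (mm7). Their rises were 4.21 and 4.18 with 75th percentile scaling, but 3.12 for Ctsk and 4.0 for Ctss with normexp, and 3.18 and 4.02 with the series matrix values.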

How the data were processed

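Per the file headers, the deposited processed intensity of each spot came from Agilent Feature Extraction 9.5.3.1, with background subtraction and detrending inside an array and no step between arrays. Raw mean and background intensity, also per the file headers, served normexp (offset 50). The deposited series matrix holds log2 values, normalized in a way the sources used here do not state. Its columns for pre-miR-16 replicates 1 and 2 each correlated better with the other's scanner file (Spearman 0.965 and 0.970) than with their own (0.946 and 0.943), so it served only as an alternative. It has no other column.

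In R 4.3.3 with limma 3.58.1, outlier spots (74 to 113 per array) were dropped, log2 intensity was centred on the 75th percentile of non-control spots and spots of a probe were averaged. A probe was kept if at least 0.5 of its spots passed the scanner's well-above-background flag on all 3 arrays of either group; 4 with a missing array were dropped. RefSeq accessions named 22951 probes, symbols 6659 and the file's own name 11564. The brightest probe per gene was tested with lmFit and eBayes. An exact permutation of 3 against 3 arrays cannot give p under 0.1. The code was tested on simulated data.

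Slide 1 held replicate 1 of both groups, slide 2 replicate 2 of both and control replicate 3, and slide 3 the remaining pre-miR-16 array. Genes other than the 10 were named by rule: up to 4 called genes per list with the smallest p, short lists whole, and up to 4 markers per cell type. More macrophage and fibroblast markers were named after their values were seen, to give limits of the sums, of the filter and of the background model. The members and lists were chosen with earlier results of these data known. Alternatives were other scalings, filters, probe summaries, blocks and each array left out.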

Additional observations from a re-analysis of the deposited data

How the results depend on the processing

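Between 6 and 8 of the 10 genes were called under each scaling, background model, filter, probe summary, block and left-out array tried, and Ctsk, Ctss, Ctsc, Ctsl and Cst3 kept their direction and call in each. Ctsb lost its call without a change of sign in 11 of the 19 settings, and Ctsd gained one in 9. Over all genes 8202 were called, and 4713 with spike-in scaling. Ctsb changed sign with spike-in scaling, to 0.11 at the gene and at its bright probe, and with the mean of its probes, to 0.39 (adjusted p = 0.0321), where the opposed probe enters the mean. Relative to Ctsb, Ctsz changed sign with Ctsd as the reference (-0.26) and with the mean of probes (-0.31), and the cause was not tested. Leaving out 1 array gave 6 to 8 called genes of the set, 5715 to 9150 called genes in all, 7 to 11 called probes and 5 to 6 called differences from Ctsb, where 6 of 8 were called with all arrays (Ctsd, the other reference, is left out of this count). With replicate number as a block 6 of the 10 genes, 7 probes, 5 differences from Ctsb and 6534 genes in all were called. Deviations of same-numbered arrays correlated at -0.09, -0.03 and -0.003, and those of differently numbered arrays at -0.05 to 0.09. With 3 arrays per group such values cannot decide whether the numbers pair the samples. The number of arrays limits what can be called, and dim probes such as that of Ctsk depend on the background model.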
